A study of Mus musculus with 10 samples.

Results

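The genes described here are 38 factors that copy chromosomal DNA, chosen by symbol and all found among the 16771 genes listed for each library. They comprise 10 licensing factors (Mcm2 to Mcm7, Cdc6, Cdt1, Orc1, Orc6), 6 helicase activation factors (Cdc45, Gins1 to Gins4, Mcm10), 7 polymerase and primase subunits (Pola1, Pola2, Pold1, Pold2, Pole, Prim1, Prim2) and 6 members of the sliding clamp and its loader (Pcna, Rfc1 to Rfc5). The other 9 are Rpa1 and Rpa2, the maturation enzymes Fen1 and Lig1, the nucleotide supply enzymes Rrm1, Rrm2 and Tyms, and the chromatin assembly subunits Chaf1a and Chaf1b. The rule that lists them uses no measured value.

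RNA was sequenced from cells of C57BL/6 bone marrow in 5 groups with 2 replicates each, which the submitters call biological. Hematopoietic stem and progenitor cells (HSPC), taken as lineage negative cells with a magnetic depletion kit, came from mice of 4 genotypes: Npm1flox-cA/+;Mx1-Cre+ (Npm1c), Flt3ITD/+ (Flt3-ITD), Npm1flox-cA/+;Flt3ITD/+;Mx1-Cre+, here called DM for its 2 mutations, and Wild-type (WT). The 5th group was WT bone marrow neutrophils from a neutrophil isolation kit. The study set the mutants, alone and together, against WT HSPC, with neutrophils as a mature cell type. The mutant Npm1 allele depends on Mx1-Cre, a recombinase driven by an interferon-responsive promoter that is not specific to blood cells, so mutant cells need not make up a whole sample. Both mutant alleles are heterozygous, and the labels list no Mx1-Cre for the Flt3-ITD or WT mice. Age, sex, the induction of Cre and the number of animals behind a sample are not stated in the labels.

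Replication starts with licensing. ORC, with Cdc6 and Cdt1, loads the Mcm2-7 helicase rings onto origins in G1, and in S phase Cdc45 and the GINS complex join Mcm2-7 to form the active helicase. Polymerase alpha with primase lays down primers, the Rfc1-5 loader places the Pcna clamp, polymerases delta and epsilon extend the strands, Rpa coats single-stranded DNA, and Fen1 and Lig1 join the lagging-strand fragments. Most of these genes are transcribed under E2F factors as cells enter the cycle, so in marrow they mark dividing progenitors and fall as granulocytes mature.

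Values are RPKM, reads scaled to gene length and to a library total. The totals, recovered from the values, ran from 40783015 to 57824373 reads, and listed genes held 60.9 and 63.1% of them in Npm1c cells, 69.5 and 63.5% in Flt3-ITD cells, 67.4 and 67.0% in DM, 81.3 and 81.3% in neutrophils and 74.5 and 74.1% in WT HSPC. On this scale the median gene had a log2 change of -0.26 in Npm1c, -0.14 in Flt3-ITD, -0.34 in DM and -0.70 in neutrophils against WT HSPC. For each comparison the count over all 38 members on the deposited scale is given with the count after median-of-ratios scaling, which sets the typical gene to no change. The replicates of every group differed beyond sampling noise, but by unequal amounts. The median chi-square of a gene's replicate reads, over its expected value, was 3.83 in Npm1c, 8.99 in Flt3-ITD, 1.23 in DM, 1.46 in neutrophils and 2.35 in WT HSPC. The limma fits give each gene 1 spread shared by all groups in the fit. The SE and p-values therefore do not show that Flt3-ITD replicates differed more and DM replicates less. Y-linked transcripts were above trace level only in Npm1c replicate 2 (Ddx3y, 3.82 RPKM) and Flt3-ITD replicate 1 (4.42 RPKM), so these libraries stood apart from their partners. Flt3-ITD replicate 1 also had a summed level of 5 primary granule genes of 1693 RPKM, against 716 in replicate 2, and Npm1c replicate 2 a summed level of 12 late neutrophil genes of 411 RPKM, against 88.1 in replicate 1. Without both libraries, on the deposited scale, the counts of members lower were 38 in Npm1c (72.5% of genes lower), 37 in Flt3-ITD (64.5%), 38 in DM (63.6%) and 38 in neutrophils (64.8%). Median-of-ratios scaling was not combined with leaving them out.

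E2F factors are known to bind short runs of letters of the kind searched for here, and the promoters shown are 6 of the 8 members' promoters with such a match before the start, and that of Rfc1, the gene that departs most from the rest in the results below. RefSeq promoters (build GRCm38.p6, 250 bases before to 50 after the start) were found for 31 of the 38 members. An E2F-type 8-mer (TTTGGCGC, TTTCGCGC, TTTCCCGC or TTTGCCGC on either strand) was present in 12 of these 31 (38.7%), against 4.72% of 7393 other tested genes and 2.61% of all 27025 genes with a promoter of that length. A CCAAT box, on either strand, was present in 67.7% of the members and 42.8% of the other tested genes, a GC box (GGGCGG) in 74.2% and 69.5%, and a TATAAA box in 9.68% and 7.97%. A gene with several promoters was counted once. A match describes letters and not binding. The windows below hold the 170 bases before the RefSeq start, written 5′ to 3′ along the gene, with E2F-type matches in capitals.
Cdc6, chr11:98907981-98908150, plus strand: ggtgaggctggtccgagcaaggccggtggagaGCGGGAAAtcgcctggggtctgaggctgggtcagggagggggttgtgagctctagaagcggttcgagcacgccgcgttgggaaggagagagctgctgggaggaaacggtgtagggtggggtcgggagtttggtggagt
Mcm7, chr5:138171884-138172053, minus strand: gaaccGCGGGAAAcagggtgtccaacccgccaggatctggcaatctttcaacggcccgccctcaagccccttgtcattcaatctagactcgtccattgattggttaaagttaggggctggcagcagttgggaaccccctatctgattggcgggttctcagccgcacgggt
Mcm5, chr8:75109339-75109508, plus strand: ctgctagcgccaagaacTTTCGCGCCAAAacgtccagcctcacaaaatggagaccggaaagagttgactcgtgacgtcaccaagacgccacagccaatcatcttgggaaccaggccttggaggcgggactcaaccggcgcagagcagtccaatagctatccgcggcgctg
Mcm6, chr1:128359706-128359875, minus strand: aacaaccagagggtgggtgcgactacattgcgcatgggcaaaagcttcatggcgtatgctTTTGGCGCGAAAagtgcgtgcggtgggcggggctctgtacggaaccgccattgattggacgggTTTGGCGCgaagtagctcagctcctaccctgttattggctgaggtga
Orc1, chr4:108579284-108579453, plus strand: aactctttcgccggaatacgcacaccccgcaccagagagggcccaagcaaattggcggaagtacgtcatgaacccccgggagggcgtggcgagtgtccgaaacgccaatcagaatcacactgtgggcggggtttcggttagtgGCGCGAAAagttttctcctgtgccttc
Pola1, chrX:93632156-93632325, minus strand: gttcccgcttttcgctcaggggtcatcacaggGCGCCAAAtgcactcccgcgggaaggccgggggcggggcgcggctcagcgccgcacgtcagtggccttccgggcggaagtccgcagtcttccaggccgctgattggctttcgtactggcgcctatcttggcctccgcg
Rfc1, chr5:65335640-65335809, minus strand: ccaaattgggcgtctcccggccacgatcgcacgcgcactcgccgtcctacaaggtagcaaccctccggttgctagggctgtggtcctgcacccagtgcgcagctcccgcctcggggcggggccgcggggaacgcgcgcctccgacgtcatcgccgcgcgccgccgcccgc
The Cdc6 match begins at position -138 from the start and that of Pola1 at the same distance. Mcm5 carries overlapping matches on both strands from -153, and Mcm6 a like pair from -110 with another match at -47. The Rfc1 window has none. Members with a match had a median log2 change in DM against WT of -1.05 (n = 12), and members with a promoter but no match had -0.92 (n = 19). The ranges overlapped, from -1.44 to -0.55 and from -1.38 to -0.68.

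**Figure D1:**
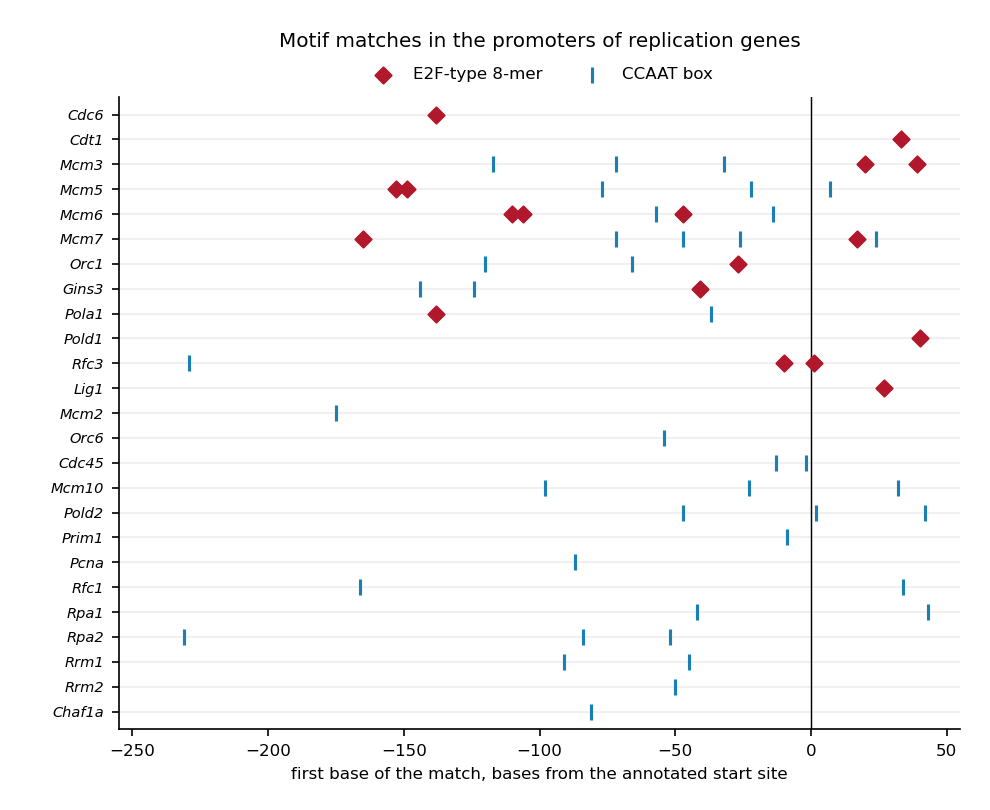
First base of each E2F-type 8-mer (diamonds) and CCAAT box (bars) in the members' promoters, on the x axis in bases from the RefSeq start site, for the members with either match. The 12 members with an E2F-type match are at the top, and 8 of them have a match before the start.

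All 38 members were expressed above 1 RPKM in every HSPC group and 35 of them in neutrophils. Their reads made up 0.847 and 0.865% of listed-gene reads in Npm1c libraries, 0.935 and 0.954% in Flt3-ITD, 0.530 and 0.533% in DM, 0.176 and 0.177% in neutrophils, and 1.01 and 1.01% in WT HSPC. The groups do not overlap in this share, which needs no gene length. As a percentage of its WT HSPC level, the median member stood at 71.1% in Npm1c (range 47.8 to 84.1), 84.9% in Flt3-ITD (59.2 to 97.4), 48.7% in DM (34.9 to 66.6) and 18.2% in neutrophils (9.28 to 54.4). On the deposited scale, group means ran DM below Npm1c below Flt3-ITD below WT HSPC for 37 of the 38 members, all but Rfc1. Of the 9702 genes tested in HSPC, 27.6% had this order. With neutrophils below DM as well, it held for 36 members, all but Rfc1 and Rfc2, and for 20.9% of genes. The order was not counted after median-of-ratios scaling, where more members departed from it. Gins1, for example, then had a log2 change of 0.13 in Flt3-ITD against WT, and Mcm10 had -0.15 in Npm1c and -0.22 in Flt3-ITD. In bulk RNA, fewer cells in S phase and less RNA in each cell cannot be told apart.

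**Figure D2:**
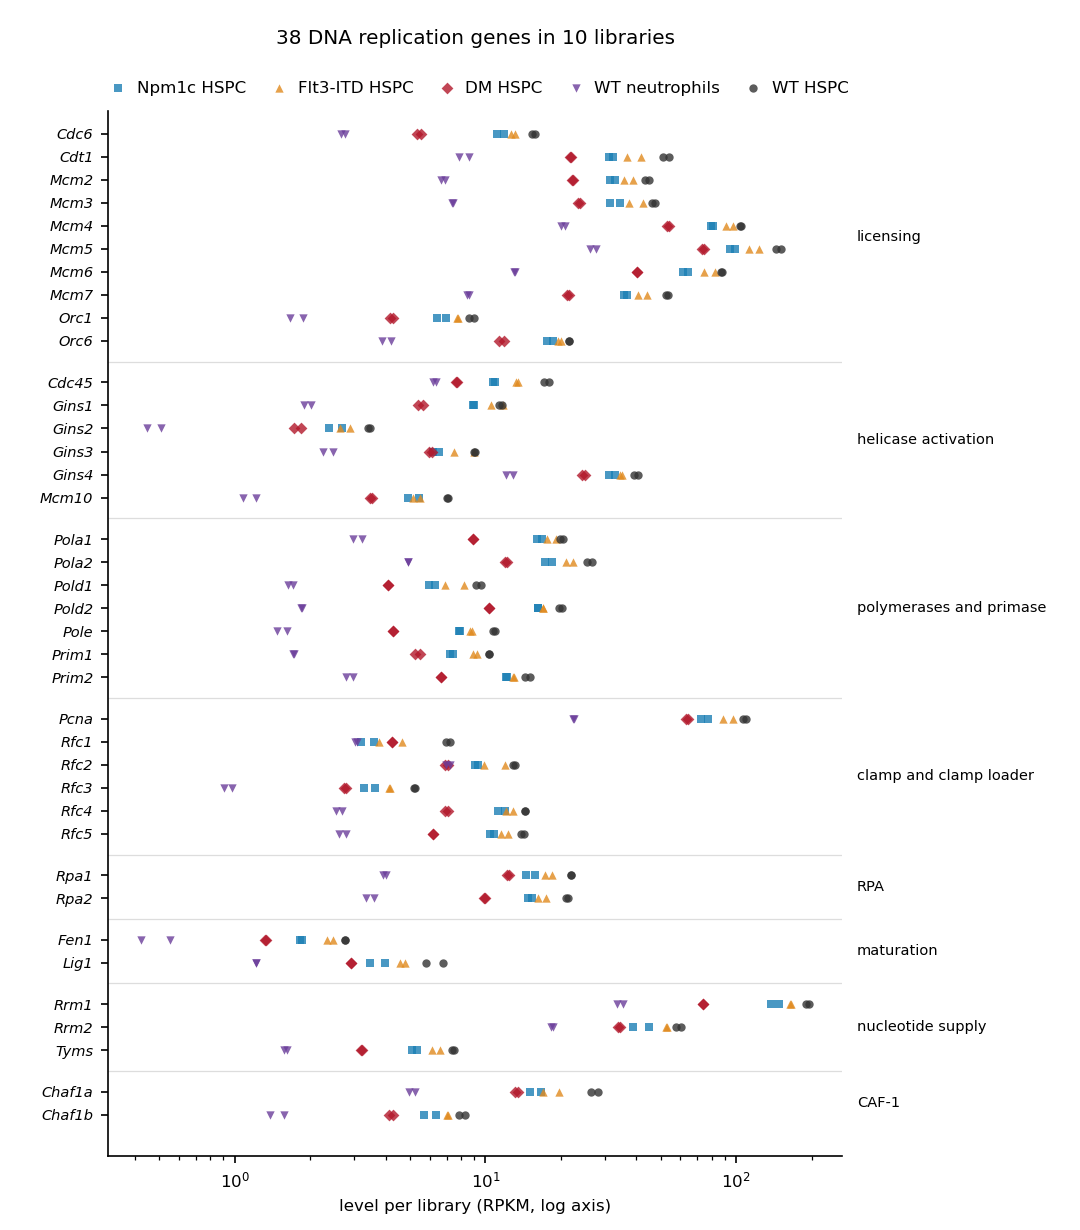
RPKM (log axis) of each of the 38 members in each of the 10 libraries, grouped by role, with 2 points per group. Neutrophil points lie lowest and WT HSPC points highest for most members, and DM points lie left of both single mutants except for Rfc1.

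Rrm1, the large subunit of the ribonucleotide reductase that makes deoxynucleotides, had the highest RPKM of the members in WT HSPC. It had 138 and 148 RPKM in Npm1c cells, 165 and 165 in Flt3-ITD cells, 73.8 and 73.6 in DM, 33.4 and 35.4 in neutrophils and 195 and 191 in WT HSPC. Fen1, the flap endonuclease of fragment maturation, had the lowest, with 1.85 and 1.82 RPKM in Npm1c cells, 2.47 and 2.33 in Flt3-ITD cells, 1.34 and 1.32 in DM, 0.424 and 0.551 in neutrophils and 2.76 and 2.75 in WT HSPC. The groups of both genes keep the common order and do not overlap. Levels of different genes depend on the gene length the authors used, which for 26 of the 38 members was within 2% of the summed length of all transcripts in GENCODE M21 and for 2 within 2% of the merged exons. Divided by merged exon length instead, the highest member in WT HSPC was Pcna (202 on the RPKM scale, rank 1), Rrm1 stood at rank 8 (69.7), and the lowest was Gins2 (7.12). Percentages of the WT level do not depend on this length. The log2 changes do, because 0.5 RPKM was added first, which shrinks the change of members with low RPKM. Fen1 in Npm1c stood at 66.7% of WT by RPKM, but its fold on the log scale was 0.718. Of Fen1's annotated exon bases, 78.8% are shared with the antisense gene Gm10143, of Gins2's 67.3% with Gse1 and of Chaf1a's 52.5% with Ubxn6. Whether counting used strand is not given in the sources used here, so reads of these partners may enter their values, as may those of the named pseudogenes of Pcna and Tyms.

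In DM HSPC every class of replication gene was lower than in WT HSPC. All 38 members fell by the limma test, on the deposited scale (58.9% of the 9702 genes were lower, 23.9% higher) and after median-of-ratios scaling (38.3% lower, 38.6% higher). The median log2 change was -0.99 for the members and -0.34 for all genes tested. The 10 licensing factors fell by a median log2 change of -0.99, the 7 polymerase and primase subunits by -1.09, the 6 helicase activation factors by -0.85 and the 6 clamp and loader genes by -0.83.

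Cdc6, which brings Mcm2-7 to ORC-bound origins, fell most. It had 5.53 and 5.34 RPKM in DM cells, against 15.3 and 15.8 RPKM in WT cells, a log2 change of -1.44 ± 0.05 (SE; adjusted p = 7.58e-07). Rrm1, with the values above, had a log2 change of -1.38 ± 0.05 (adjusted p = 7.22e-07). Both genes were below 40% of WT, at 34.9% and 38.2%. Mcm7, a helicase ring subunit, had 21.2 and 21.5 RPKM in DM cells, against 52.7 and 53.7 RPKM in WT cells (log2 change -1.30 ± 0.05, adjusted p = 1.08e-06). Cdt1, the partner of Cdc6 in loading, had 21.7 and 21.9 RPKM in DM cells, against 51.2 and 54.2 RPKM in WT cells (log2 change -1.26 ± 0.07, adjusted p = 3.68e-06). Both licensing genes were far outside the spread of their replicates. Pole, the catalytic subunit of the leading-strand polymerase, had 4.27 and 4.29 RPKM in DM cells, against 10.9 and 10.8 RPKM in WT cells (log2 change -1.25 ± 0.05, adjusted p = 6.49e-07). Cdc45, the helicase cofactor, had 7.69 and 7.64 RPKM in DM cells, against 17.1 and 17.9 RPKM in WT cells (log2 change -1.14 ± 0.05, adjusted p = 1.10e-06). After median-of-ratios scaling these 6 changes were smaller, between -1.08 for Cdc6 and -0.78 for Cdc45.

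The smallest falls in DM were those of the GINS subunit Gins3, of Rfc1, the large subunit of the clamp loader, and of Gins4. Gins3 had 5.96 and 6.10 RPKM in DM cells, against 9.09 and 9.01 RPKM in WT cells (log2 change -0.55 ± 0.08, adjusted p = 0.000637). Gins4 had 24.9 and 24.3 RPKM in DM cells, against 39.3 and 40.7 RPKM in WT cells (log2 change -0.69 ± 0.05, adjusted p = 1.23e-05). Gins1 had a log2 change of -0.99 and Gins2 one of -0.78, which the added 0.5 RPKM understates at 1.84 and 1.73 RPKM in DM. As a percentage of WT, the 4 GINS subunits, which work as 1 complex, changed unequally. Gins1 stood at 48.1% and Gins2 at 52.2%, against 61.5% for Gins4 and 66.6% for Gins3. The 6 Mcm2-7 subunits kept closer together, with log2 changes from -1.30 (Mcm7) to -0.96 (Mcm4). Their shares of the summed Mcm2-7 RPKM moved little: Mcm5 made up 28.4% in Npm1c, 28.7% in Flt3-ITD, 31.4% in DM, 32.4% in neutrophils and 30.5% in WT HSPC. Mcm7 made up 10.6% in Npm1c, 10.3% in Flt3-ITD, 9.10% in DM, 10.2% in neutrophils and 10.99% in WT HSPC.

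In Npm1c HSPC the members were also lower than in WT, by smaller amounts. All 38 fell on the deposited scale (58.1% of genes lower, 2.49% higher), and 23 of them after median-of-ratios scaling (20.7% lower, 17.6% higher). The median log2 change was -0.47 for the members and -0.26 for all genes. The members that fell under both scalings included 6 of 10 licensing factors, 4 of 7 polymerase and primase subunits, 4 of 6 clamp and loader genes and 3 of 6 helicase activation factors. Orc6 and Prim2 lay above WT once scaled, with log2 changes of 0.04 and 0.01 after median-of-ratios scaling, against -0.24 and -0.26 as deposited.

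The largest fall in Npm1c was that of Rfc1. It had 3.20 and 3.58 RPKM in Npm1c cells, against 7.21 and 6.97 RPKM in WT cells, 47.8% of the WT level (log2 change -0.97 ± 0.09, adjusted p = 0.000751). Chaf1a, the large subunit of the CAF-1 histone chaperone that deposits histones behind the fork, had 15.1 and 16.6 RPKM in Npm1c cells, against 28.2 and 26.3 RPKM in WT cells (log2 change -0.76 ± 0.09, adjusted p = 0.000932). In both genes the Npm1c libraries lay well below the WT libraries. Cdt1 had 31.2 and 32.2 RPKM in Npm1c cells, against 51.2 and 54.2 RPKM in WT cells (log2 change -0.72 ± 0.07, adjusted p = 0.00072). Lig1, the ligase that seals lagging-strand fragments, had 3.46 and 3.98 RPKM in Npm1c cells, against 6.75 and 5.79 RPKM in WT cells (log2 change -0.68 ± 0.09, adjusted p = 0.0014). The WT replicates of Lig1 differed by 16.7%, the most of any member in that group. Cdc45 had 10.7 and 10.9 RPKM in Npm1c cells, against 17.1 and 17.9 RPKM in WT cells (log2 change -0.68 ± 0.05, adjusted p = 0.000391). Mcm5, another ring subunit, had 94.2 and 98.9 RPKM in Npm1c cells, against 144 and 151 RPKM in WT cells (log2 change -0.61 ± 0.06, adjusted p = 0.000763). After median-of-ratios scaling these 6 changes ran from -0.70 for Rfc1 to -0.32 for Mcm5.

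In Flt3-ITD HSPC fewer members changed. On the deposited scale 26 of the 38 fell (31.3% of genes lower, 1.86% higher), and after median-of-ratios scaling 8 fell, a share of members above that of all genes (9.81% lower, 8.1% higher). Scaled to listed-gene reads, 8 fell and none rose (11.1% lower, 7.33% higher). The median log2 change was -0.23 for the members and -0.14 for all genes. No member rose under either scaling. The count of 26 rested on single libraries: it was 3 without WT replicate 1 (4.75% of genes lower), 4 without WT replicate 2 (6.5%), 16 without DM replicate 1 or 2 (21.8% and 21.7%) and 34 without Flt3-ITD replicate 1 (56.4%). It was 37 without Npm1c replicate 2 and Flt3-ITD replicate 1 together (64.5%).

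Rfc1 and Chaf1a again fell most. Rfc1 had 4.63 and 3.76 RPKM in Flt3-ITD cells, against 7.21 and 6.97 RPKM in WT cells (log2 change -0.70 ± 0.09, adjusted p = 0.00448). Chaf1a had 19.7 and 16.9 RPKM in Flt3-ITD cells, against 28.2 and 26.3 RPKM in WT cells (log2 change -0.56 ± 0.09, adjusted p = 0.0059, and 0.0561 without WT replicate 1). The Rfc1 replicates differed by 23.1%, the most of any member in Flt3-ITD, but both lay below WT. Cdt1 had 41.6 and 36.5 RPKM in Flt3-ITD cells, against 51.2 and 54.2 RPKM in WT cells (log2 change -0.43 ± 0.07, adjusted p = 0.00682, and 0.0608 without WT replicate 2). Cdc45 had 13.4 and 13.2 RPKM in Flt3-ITD cells, against 17.1 and 17.9 RPKM in WT cells (log2 change -0.38 ± 0.05, adjusted p = 0.00354). Cdt1 stood at 74.2% and Cdc45 at 76.0% of WT. Mcm10, which helps activate the helicase, had 5.48 and 5.15 RPKM in Flt3-ITD cells, against 7.005 and 7.12 RPKM in WT cells (log2 change -0.38 ± 0.06, adjusted p = 0.00744, and 0.0591 and 0.0618 without WT replicate 1 or 2). Rpa2, the middle subunit of the single-strand binding complex, had 17.4 and 16.1 RPKM in Flt3-ITD cells, against 21.1 and 21.4 RPKM in WT cells (log2 change -0.33 ± 0.05, adjusted p = 0.00694, and 0.0575 and 0.0608 without WT replicate 1 or 2).

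Gins1 lay closest to WT, with 11.8 and 10.5 RPKM in Flt3-ITD cells, against 11.3 and 11.6 RPKM in WT cells. The groups overlapped, and the log2 change was -0.04 ± 0.06 (adjusted p = 0.683) as deposited and 0.13 (adjusted p = 0.096) after median-of-ratios scaling. Gins3 also overlapped with WT, and both libraries of the other 36 members lay below both WT libraries, as for 57.1% of genes. The 8 members that fell under both scalings in Npm1c, Flt3-ITD and DM cells were Cdc45, Cdt1, Chaf1a, Mcm10, Mcm5, Mcm7, Rfc1 and Rpa2. The 3 comparisons share their WT libraries, and these 8 are all the members that fell under both scalings in Flt3-ITD. The share of all genes that fell in all 3 was not counted. It cannot exceed the 9.81% of genes that were lower in Flt3-ITD after median-of-ratios scaling.

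**Figure D3:**
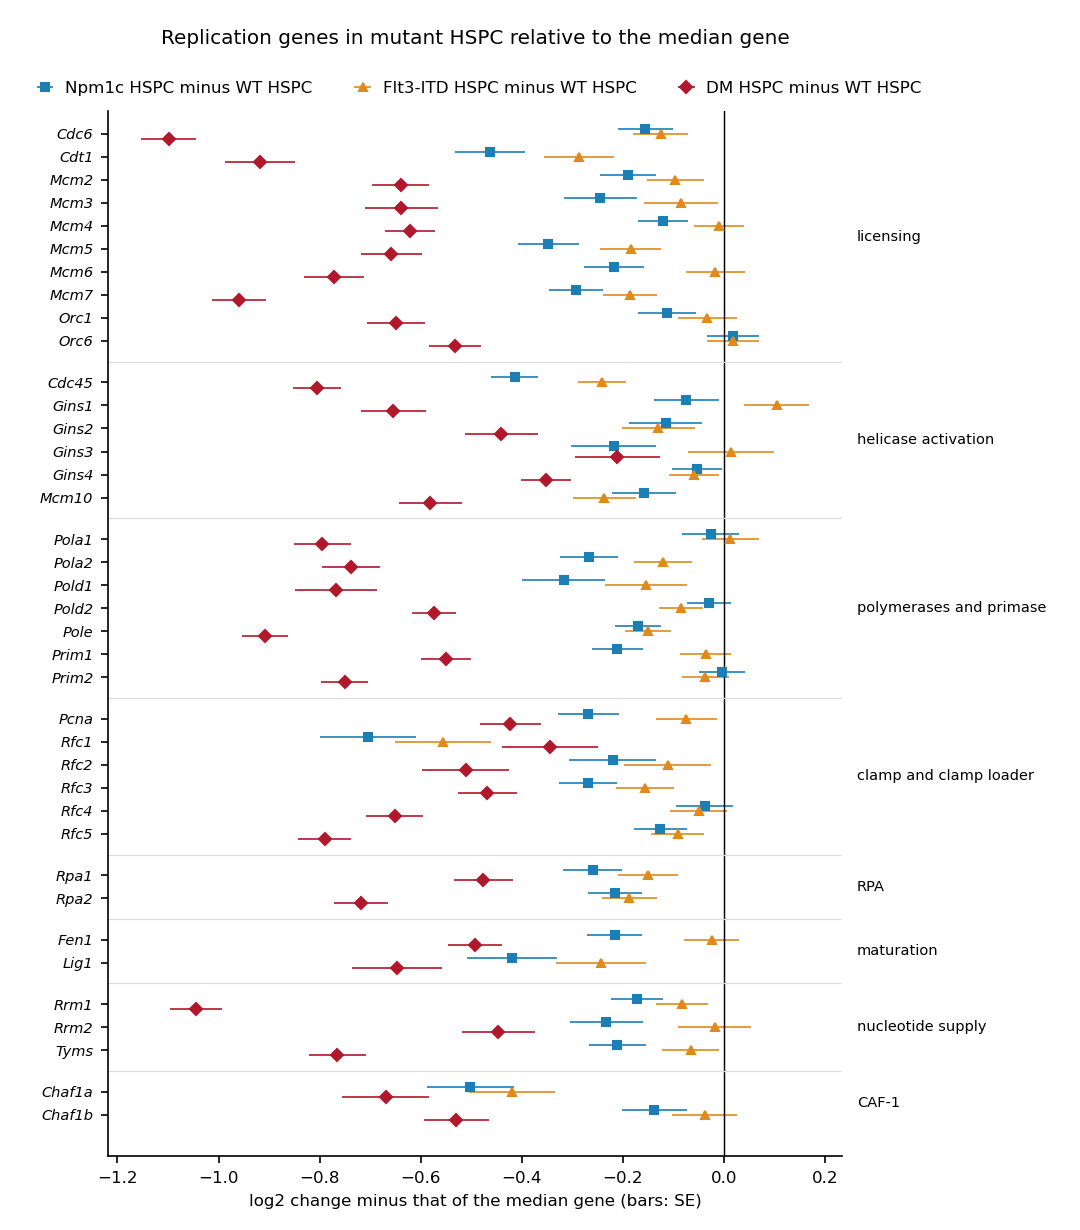
Log2 change of each member against WT HSPC minus that of the median gene, in Npm1c, Flt3-ITD and DM HSPC, with bars of 1 SE from limma. DM symbols lie leftmost for all members but Rfc1 and Gins3, and the Flt3-ITD symbols of several members, Gins1 among them, reach or pass the zero line.

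Set against the single mutants, DM cells had lower levels of nearly all members. Against Npm1c cells 36 members fell and 1 rose under either scaling (deposited 43% of genes lower and 34.4% higher, scaled 39.8% and 40.1%). Against Flt3-ITD cells 37 fell (deposited 48.8% of genes lower and 28.6% higher, scaled 38.3% and 39.3%). The median log2 changes of the members were -0.53 against Npm1c and -0.74 against Flt3-ITD, those of all genes -0.09 and -0.18. Cdc6, Rrm1, Pola1, Pole and Mcm7 were among the 6 largest falls in each comparison, and the comparisons share their DM libraries. Cdc6, at 5.53 and 5.34 RPKM in DM cells, had 11.2 and 11.9 RPKM in Npm1c cells (log2 change -1.02 ± 0.05, adjusted p = 3.57e-06) and 13.1 and 12.6 RPKM in Flt3-ITD cells (-1.17 ± 0.05, adjusted p = 2.27e-06). Rrm1 had log2 changes of -0.95 ± 0.05 against Npm1c and -1.16 ± 0.05 against Flt3-ITD. Pola1, the catalytic subunit of the priming polymerase, had 8.93 and 8.89 RPKM in DM cells, 16.01 and 16.8 RPKM in Npm1c cells and 19.1 and 17.6 RPKM in Flt3-ITD cells. Its log2 changes were -0.85 ± 0.06 and -1.002 ± 0.06. The other named falls were those of Pole (-0.81 and -0.95), Mcm7 (-0.74 and -0.97), Prim2 against Npm1c (-0.82) and Gins1 against Flt3-ITD (-0.95).

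Gins3 did not pass the test against Npm1c cells, with a log2 change of -0.07 ± 0.08 (adjusted p = 0.473). Rfc1 was higher in DM, at 4.24 and 4.22 RPKM, than in Npm1c cells, at 3.20 and 3.58 RPKM (log2 change 0.28 ± 0.09, adjusted p = 0.0279). The call ended without Npm1c replicate 1 (adjusted p = 0.148) and without DM replicate 1 or 2 (0.0972 and 0.0928). Against Flt3-ITD cells, at 4.63 and 3.76 RPKM, the Rfc1 groups overlapped, with a log2 change of 0.02 ± 0.09 (adjusted p = 0.876), which after median-of-ratios scaling was 0.20 (adjusted p = 0.0219) and without Flt3-ITD replicate 2 was -0.12.

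The interaction term asks whether the DM change differs from the sum of the single-mutant log2 changes. It was lower than 0, a DM level below that sum, for 20 of the 38 members (27.6% of genes) and higher for 1 (39.2% of genes). After median-of-ratios scaling it was lower for 27 (34.7%) and higher for 2 (38.2%), and without Npm1c replicate 2 and Flt3-ITD replicate 1 it was lower for 20 (28.8%) and higher for 3 (49.3%). Scaled to listed-gene reads, it was lower for 35 (44.2%) and higher for 1 (31.2%). The median term was -0.25 for the members and 0.09 for all genes. On the deposited scale it was lower for 7 of 10 licensing factors and 6 of 7 polymerase and primase subunits, 1 of 6 helicase activation factors and 2 of 6 clamp and loader genes. After median-of-ratios scaling these counts were 9, 7, 4 and 2, and scaled to listed-gene reads they were 10, 7, 6 and 5, so the counts by class depend on the scaling.

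Cdc6 had a summed single-mutant log2 change of -0.68 and a DM change of -1.44, an interaction of -0.75 ± 0.08 (adjusted p = 0.000151). Rrm1 had a sum of -0.66 and a DM change of -1.38 (interaction -0.72 ± 0.07, adjusted p = 0.000145). Pola1 had a sum of -0.42 and a DM change of -1.13 (interaction -0.72 ± 0.08, adjusted p = 0.000226). In each of these genes the DM change lay further below the sum than the sum lay below WT. Prim2, the large primase subunit, had a sum of -0.44 and a DM change of -1.09 (interaction -0.64 ± 0.07, adjusted p = 0.000147). Gins1 had a sum of -0.37 and a DM change of -0.99 (interaction -0.62 ± 0.09, adjusted p = 0.000848). For Pcna, Rpa1, Gins3 and Rfc3 the DM change lay within 0.06 of the sum, with terms of -0.01 ± 0.09, -0.00010 ± 0.08, 0.06 ± 0.12 and 0.02 ± 0.08. None passed the test as deposited, and the signs of Gins3 and Rfc3 turned after median-of-ratios scaling (-0.02 and -0.06). Scaled to listed-gene reads, where the median term of all genes was -0.15, all 4 passed as lower, with -0.29 for Pcna (adjusted p = 0.00224), -0.27 for Rpa1 (0.00406), -0.20 for Gins3 (0.0440) and -0.23 for Rfc3 (0.0298). Gins3 passed as higher without Flt3-ITD replicate 1 (0.19, adjusted p = 0.0384) and without that library and Npm1c replicate 2 (0.22, adjusted p = 0.0111).

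Rfc1 went the other way. Its Npm1c and Flt3-ITD changes summed to -1.66, while the DM change was -0.68, an interaction of 0.98 ± 0.13 (adjusted p = 0.000594). The term was 0.90 after median-of-ratios scaling, 0.73 when scaled to listed-gene reads and 1.19 without Npm1c replicate 2 and Flt3-ITD replicate 1, and it passed under each. Chaf1a had a sum of -1.32 and a DM change of -1.01, an interaction of 0.32 ± 0.12 that did not pass as deposited (adjusted p = 0.0511) and did after median-of-ratios scaling (0.23, adjusted p = 0.0306). It was 0.05 (adjusted p = 0.607) when scaled to listed-gene reads and passed without Flt3-ITD replicate 1 (0.43, adjusted p = 0.00419) and without Npm1c replicate 2 (0.38, adjusted p = 0.0494).

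**Figure D4:**
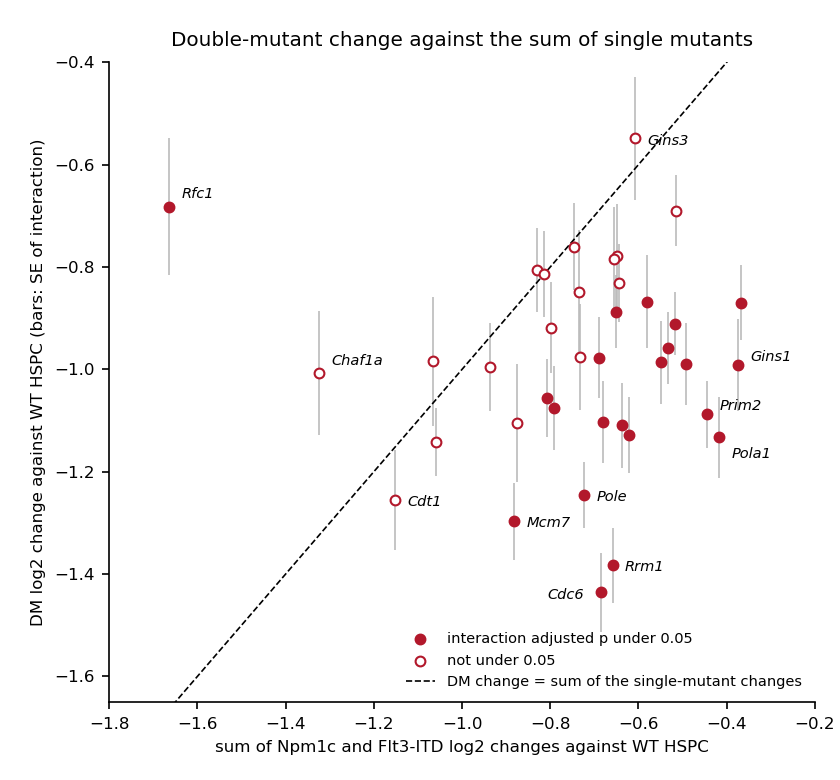
DM log2 change against WT HSPC (y axis, bars 1 SE of the interaction) plotted over the sum of the Npm1c and Flt3-ITD changes (x axis) for the 38 members. Filled points have an interaction adjusted p under 0.05. They lie below the dashed line of equality for 20 members and above it for Rfc1.

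WT neutrophils had the lowest levels of the members. All 38 were lower than in WT HSPC on the deposited scale (62.8% of the 10174 genes tested were lower, 28.4% higher) and 37 after median-of-ratios scaling (44.7% lower, 45.5% higher). The median log2 change was -2.27 for the members and -0.70 for all genes. The smallest read number behind a member's value was 155, for Fen1 in a neutrophil library, and the median member had at least 968.5 reads in each neutrophil library.

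Pold2, the accessory subunit of polymerase delta, fell most, with 1.84 and 1.86 RPKM in neutrophils, against 19.7 and 20.2 RPKM in WT HSPC (log2 change -3.12 ± 0.04, adjusted p = 1.89e-10). By log2 change the next 5 were licensing factors. As a percentage of WT HSPC, however, Gins2 (14.0%) and Pole (14.3%) stood below Mcm6 (14.9%), and Pola1 (15.4%) below Cdt1 (15.6%). The added 0.5 RPKM understates the change of genes with low RPKM, so this order of log2 changes depends on it. Mcm6 had 13.1 and 12.98 RPKM in neutrophils, against 87.0 and 88.1 RPKM in WT HSPC (log2 change -2.70 ± 0.05, adjusted p = 7.65e-10). Mcm2 had 6.93 and 6.65 RPKM in neutrophils, against 44.9 and 43.5 RPKM in WT HSPC (log2 change -2.62 ± 0.05, adjusted p = 7.99e-10). Both ring subunits stood near 15% of their level in WT HSPC, at 14.9% and 15.4%. Cdt1 had 8.57 and 7.81 RPKM in neutrophils, against 51.2 and 54.2 RPKM in WT HSPC (log2 change -2.61 ± 0.07, adjusted p = 2.95e-09). Mcm3 had a log2 change of -2.58 ± 0.07 and Mcm7 one of -2.58 ± 0.05.

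The loader subunits Rfc2 and Rfc1 and the helicase cofactor Cdc45 stood highest relative to the other members. Rfc2 had 7.19 and 6.98 RPKM in neutrophils, against 12.9 and 13.1 RPKM in WT HSPC, a log2 change of -0.84 ± 0.08 (adjusted p = 9.92e-06) that was 0.03 (adjusted p = 0.521) after median-of-ratios scaling. Its exons share 15.1% of their bases with Lat2 on the other strand, listed at 0.708 and 0.669 RPKM in neutrophils and 1.29 and 1.37 RPKM in WT HSPC. Rfc1 had 3.03 and 3.08 RPKM in neutrophils, against 7.21 and 6.97 RPKM in WT HSPC (log2 change -1.09 ± 0.09, adjusted p = 2.78e-06). Cdc45 had 6.37 and 6.19 RPKM in neutrophils, against 17.1 and 17.9 RPKM in WT HSPC (log2 change -1.41 ± 0.04, adjusted p = 6.10e-09). The smaller loader subunits Rfc3, Rfc4 and Rfc5 stood at 18.1, 18.2 and 19.1% of WT HSPC, so the 5 subunits of the loader did not change alike.

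Other replication genes, a list of 49 that includes further origin, polymerase, nucleotide and fork protection factors, was tested in the same fits, against the shares of all genes given above. In DM against WT 44 fell and 2 rose (39 and 5 after median-of-ratios scaling), with a median log2 change of -0.91. In Npm1c 40 fell and none rose (19 and 5 scaled), in Flt3-ITD 21 fell and none rose (9 and 1 scaled), so that most did not pass there, and in neutrophils 46 fell and 2 rose (42 and 6 scaled). The smallest adjusted p-values in DM belonged to Msh6, the mismatch repair factor, Dut, which removes dUTP, and Asf1a, a histone chaperone. Dut had 27.9 and 27.8 RPKM in DM cells, against 65.0 and 63.8 RPKM in WT cells (log2 change -1.20 ± 0.05, adjusted p = 1.25e-06), while its Npm1c libraries, at 59.5 and 63.7 RPKM, differed from WT by a log2 change of -0.06 (adjusted p = 0.307) as deposited and 0.22 (adjusted p = 0.0103) after median-of-ratios scaling. Its interaction term was -1.03 ± 0.07 and that of Asf1a -1.01 ± 0.06. In Npm1c the smallest adjusted p-values were those of Uhrf1 (log2 change -0.82 ± 0.07), Tk1 (-0.93 ± 0.08) and Clspn (-0.80 ± 0.07), and in Flt3-ITD those of Recql4 (-0.57 ± 0.06), Clspn (-0.55 ± 0.07) and Timeless (-0.48 ± 0.07).

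The genes of that list that rose in DM as deposited were Pold4, the smallest polymerase delta subunit, and the nuclease and helicase Dna2. Pold4 had 43.5 and 42.2 RPKM in DM cells, against 13.3 and 13.8 RPKM in WT cells (log2 change 1.63 ± 0.18, adjusted p = 0.000125), while Pold1 and Pold2 of the same polymerase had log2 changes of -1.11 and -0.91. Pold4 was also higher in neutrophils, at 22.9 and 23.2 RPKM (log2 change 0.75 ± 0.17, adjusted p = 0.00296), and lower in Npm1c cells, at 8.11 and 8.89 RPKM (-0.64 ± 0.18, adjusted p = 0.0213, and 0.0888 after median-of-ratios scaling). Dna2 had 6.95 and 6.73 RPKM in DM cells, against 5.90 and 5.93 RPKM in WT cells (log2 change 0.19 ± 0.06, adjusted p = 0.0163), and was lower in neutrophils, at 1.56 and 1.49 RPKM.

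Of 25 tested E2F and G1/S regulators, 20 fell and 3 rose in DM (17 and 4 after median-of-ratios scaling), with a median log2 change of -0.85. In Npm1c 16 fell and 1 rose (6 and 2 scaled), in Flt3-ITD 8 fell and none rose (2 and 1 scaled), and in neutrophils 21 fell and 4 rose (15 and 7 scaled). In Npm1c 58.1% of all genes were lower (20.7% scaled) and in Flt3-ITD 31.3% (9.81% scaled), so the counts of this list there lay near the background. Its median log2 change was -0.25 in Npm1c and -0.10 in Flt3-ITD, against -0.26 and -0.14 for all genes. The smallest adjusted p-values in DM were those of Tfdp2, a partner of E2F proteins (log2 change -1.21 ± 0.05), Ccna2, the S phase cyclin A2 (-1.18 ± 0.06), and Fbxo5, an inhibitor of the anaphase-promoting complex (-1.21 ± 0.06). The rises in DM were those of E2f5, a repressive E2F, and of the CDK inhibitors Cdkn1a and Cdkn1b. Cdkn1a had 2.98 and 2.76 RPKM in DM cells, against 0.278 and 0.266 RPKM in WT cells (log2 change 2.12 ± 0.17, adjusted p = 2.27e-05), a change that the added 0.5 RPKM understates. Cdkn1a was also higher in Npm1c cells, at 0.592 and 1.17 RPKM (log2 change 0.81 ± 0.17, adjusted p = 0.00778). The higher of these 2 values is that of Npm1c replicate 2, a library with Y-linked transcripts. Cdkn1a passed the filter of 1 RPKM only through that library and the DM libraries, where it was high. Its tests therefore add no support beyond the levels themselves. Cdkn1b had 7.78 and 7.75 RPKM in DM cells, against 4.23 and 4.25 RPKM in WT cells (log2 change 0.80 ± 0.05, adjusted p = 8.08e-06), and in neutrophils 15.0 and 14.9 RPKM (1.70 ± 0.05, adjusted p = 3.06e-09).

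**Figure D5:**
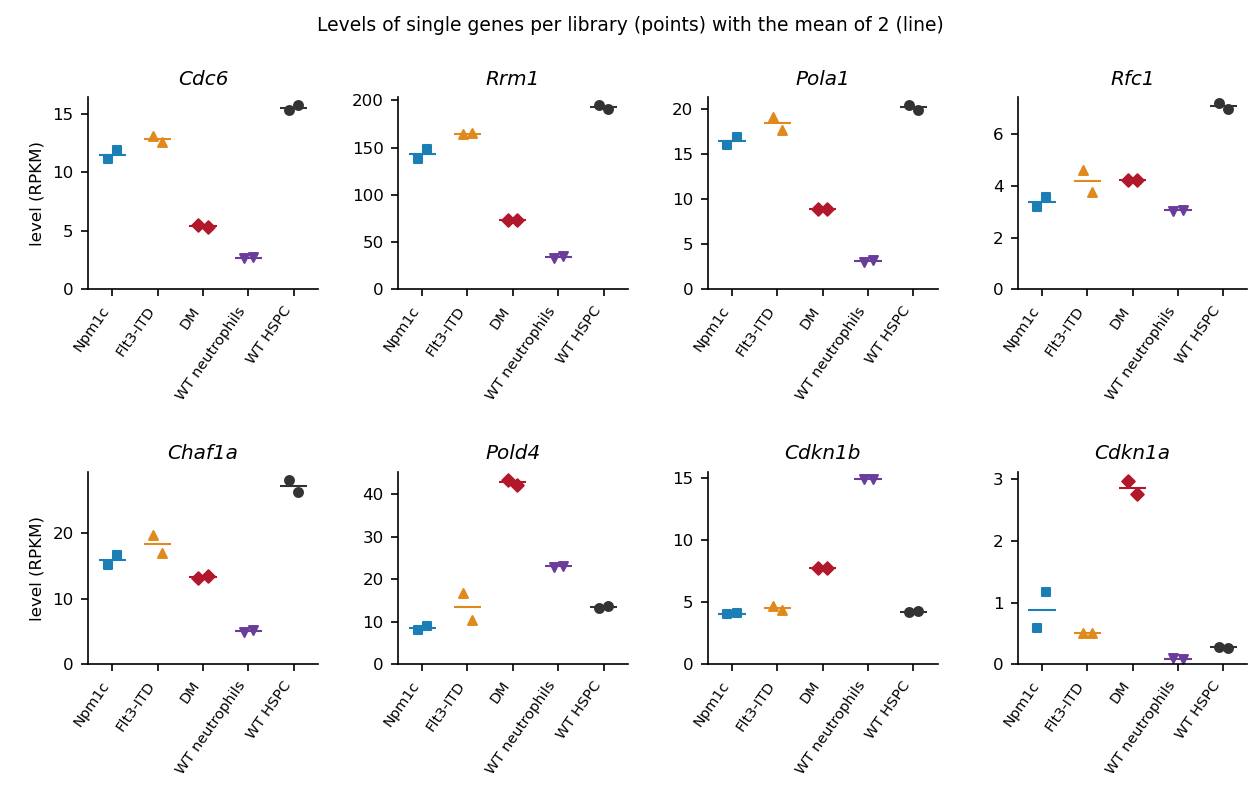
RPKM per library (points) and group mean (line) of 5 members and of Pold4, Cdkn1b and Cdkn1a, on axes that start at 0. Cdc6, Rrm1 and Pola1 are lower in DM than in either single mutant, Rfc1 is lower in Npm1c than in DM, and Pold4, Cdkn1b and Cdkn1a are above WT in DM.

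Cell type and division markers moved with these groups. The summed level of 17 mitosis genes, of which Ccna2 is also counted above, was 405 and 436 RPKM in Npm1c cells, 528 and 487 in Flt3-ITD cells, 330 and 324 in DM, 215 and 220.2 in neutrophils, and 711 and 705 in WT HSPC. All 17 were above 1 RPKM in every group. On the deposited scale, group means ran DM below Npm1c below Flt3-ITD below WT HSPC for 15 of the 17, all but Mki67 and Cenpf. This order was not counted under other scalings. Mki67, a proliferation marker, had 33.4 and 36.8 RPKM in Npm1c cells, 42.05 and 31.6 in Flt3-ITD cells, 72.1 and 69.7 in DM, 41.5 and 43.7 in neutrophils and 128 and 116 in WT HSPC. By limma it was lower than WT in DM (log2 change -0.78 ± 0.13, adjusted p = 0.000936) but higher in DM than in Npm1c cells (1.005 ± 0.13, adjusted p = 0.000278) and than in Flt3-ITD cells (0.95 ± 0.13, adjusted p = 0.000385). Cenpf had 3.59 and 3.49 RPKM in DM cells, against 3.38 and 3.49 RPKM in Npm1c cells (log2 change 0.04 ± 0.09, adjusted p = 0.709). Of the 10 progenitor markers, 9 were above 1 RPKM in Npm1c, 9 in Flt3-ITD, 7 in DM, 5 in neutrophils and 9 in WT HSPC, and none was at 0. In DM cells Myb, a transcription factor of progenitors, stood at 10.4 and 10.5 RPKM, against 59.8 and 58.4 RPKM in WT HSPC. Flt3 stood at 44.2 and 44.3 RPKM in DM cells, against 5.35 and 5.22 RPKM in WT HSPC. The 6 monocyte and macrophage markers summed to 685 and 681 RPKM in DM, against 80.1 and 80.3 RPKM in WT HSPC. Most of the DM sum came from Mpeg1 (580.4 and 578 RPKM, against 22.5 and 20.7 RPKM in WT HSPC). These markers did not all move alike: Ccr2, Adgre1 and Cd68 were also higher in DM, and Csf1r was slightly lower. Ly6c2 was lower as well, at 23.4 and 23.2 RPKM in DM, against 37.7 and 39.7 RPKM in WT HSPC. The same 6 markers summed to 42.1 and 38.5 RPKM in Npm1c and 135 and 75.6 RPKM in Flt3-ITD. The 5 primary granule genes summed to 95.8 and 95.5 RPKM in DM, 370 and 372 in neutrophils and 1010.0 and 1057 in WT HSPC. The 12 late neutrophil genes summed to 99218 and 98939 RPKM in neutrophils, against 76.0 and 57.3 RPKM in WT HSPC. The 5 megakaryocyte genes summed to 49.1 and 49.2 RPKM in DM, against 239 and 247 RPKM in WT HSPC, and the 9 erythroid genes to 674 and 661 RPKM in DM, against 629.5 and 653 RPKM in WT HSPC. The erythroid sum joins genes that changed in opposite directions. The globin gene Hbb-bt had 138 and 140.04 RPKM in DM, against 42.2 and 46.0 RPKM in WT HSPC (log2 change 1.65 ± 0.29, adjusted p = 0.00131), and Hba-a1 had 326 and 317 RPKM, against 175 and 189 RPKM (0.82 ± 0.30, adjusted p = 0.0362). Both globin genes have near-identical copies, so how reads were split among these is uncertain. Klf1, a transcription factor of red cell precursors, had 53.2 and 50.2 RPKM in DM, against 139 and 148.5 RPKM in WT HSPC (-1.47 ± 0.07, adjusted p = 1.82e-06). Epor (-1.60), Tfrc (-1.05) and Ermap (-1.95) were also lower in DM. B cell sums were at most 12.4 RPKM in HSPC libraries, and T and NK cell sums were 69.9 RPKM in Flt3-ITD replicate 1 and at most 41.8 RPKM in the other HSPC libraries. In Flt3-ITD replicate 1 that sum was nearly all Nkg7 (69.5 RPKM), with Cd3e, Cd3g, Cd8a and Klrb1c at 0.0765, 0.170, 0.0204 and 0.0820 RPKM. Nkg7 also made up most of the sum in the other HSPC libraries, with 40.3 and 41.4 RPKM in WT HSPC. Cd8a had 2.50 and 2.41 RPKM in DM, against 0.0180 and 0.0151 RPKM in WT HSPC. No marker of any list was at 0 in both libraries of a group. The part of these markers in the levels of the replication genes was not tested.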

How the data were processed

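RPKM values, as deposited by the authors, were read for 10 libraries, 2 in each of 5 groups. Per the labels' protocols, libraries were made from rRNA-depleted total RNA with a directional kit. Per the submitters' processing notes, STAR 2.4.0, HTSeq, DiffBind and mm10 were used, with no roles given. Whole reads were recovered from the RPKM steps for 16646 of 16655 genes (tolerance 0.02) and used for depth, replicate agreement and listed-gene scaling. log2(RPKM + 0.5) was fitted with limma 3.58.1 (trend) in R 4.3.3, for genes at 1 RPKM or more in at least 2 fitted libraries. The 8 HSPC libraries were fitted together for the mutant comparisons and all 10 for neutrophils. Fold changes are on that log scale, which understates low genes. Adjusted p-values are Benjamini-Hochberg over all genes tested, and a call needs one under 0.05. The p-values measure the spread between these samples, which is estimated from 2 libraries per group and pooled over the groups of a fit, although the groups differed in spread. The deposited scale came first, with median-of-ratios and listed-gene scaling, pseudocounts of 0.1 and 1, no filter, a replicate block and leaving out each library as alternatives. The members, gene lists and tests were chosen with earlier results of these data known. For each comparison, up to 6 members with the largest change under both scalings, and up to 3 furthest the other way, are given in full. Of each other list, up to 3 genes with the smallest adjusted p are named. Pold4, Dna2, Cdkn1a and Cdkn1b, which lie outside that rule in some comparisons, were named after their values were seen. Same-numbered replicates did not deviate together and were not treated as pairs. The scripts were tested on simulated data, and Python 3.11.15 with NumPy 2.4.6, pandas 2.3.3 and matplotlib 3.10.9 was used for tables and figures. Promoter sequences are from RefSeq and exon overlaps from GENCODE M21.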

Additional observations from a re-analysis of the deposited data

Results flagged for a closer look

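For 21 members the change that comes with the second mutation differed from the change the same mutation made alone, by the limma interaction test (adjusted p under 0.05). Of all 9702 genes tested, 6480 passed this test, 27.6% lower and 39.2% higher, so passing does not by itself set the members apart. Among licensing factors the interaction log2 changes were -0.75 for Cdc6, -0.50 for Orc6, -0.47 for Mcm6, -0.44 for Orc1, -0.43 for Mcm4, -0.42 for Mcm7 and -0.29 for Mcm2. Among polymerase and primase subunits they were -0.72 for Pola1, -0.64 for Prim2, -0.52 for Pole, -0.39 for Pold2, -0.28 for Pola2 and -0.24 for Prim1. In the other classes they were -0.72 for Rrm1, -0.62 for Gins1, -0.51 for Rfc5, -0.50 for Rfc4, -0.42 for Tyms, -0.29 for Chaf1b and -0.25 for Rpa2, and 0.98 for Rfc1. In Rfc1 alone of these 21 the DM level lay above the sum of the single-mutant changes. When 1 library was left out, 5 of these calls were lost in some fits: Mcm2 in 3 (adjusted p from 0.0567 to 0.0672), Pola2 in 4 (0.0558 to 0.0749), Prim1 in 5 (0.0506 to 0.104), Rpa2 in 5 (0.0608 to 0.0881) and Chaf1b in 4 (0.0620 to 0.0973). Leaving out DM replicate 1 or DM replicate 2 ended all 5 calls. WT replicate 1 ended those of Pola2, Prim1, Rpa2 and Chaf1b, as did Npm1c replicate 2, and WT replicate 2 ended those of Mcm2, Prim1 and Rpa2.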

How the results depend on the processing

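The counts of members lower in Npm1c, DM and neutrophils, and in DM against either single mutant, stayed within 1.5 times under every alternative, except that median-of-ratios scaling gave 23 in Npm1c. The count in Flt3-ITD was 26, 8 with median-of-ratios and 8 with listed-gene scaling. It was 3 to 34 when 1 library was left out and 37 without Npm1c replicate 2 and Flt3-ITD replicate 1, an alternative chosen after seeing the data. In DM against Npm1c, 0 to 1 member was higher (33 to 36 lower) when 1 library was left out. In DM against Flt3-ITD, 1 was higher with median-of-ratios scaling and 1 without both those libraries. The interaction was lower for 35 members with listed-gene scaling and for 15 to 26 when 1 library was left out. It was higher for 2 with a pseudocount of 1, for 2 with median-of-ratios scaling, for 3 without both those libraries and for 1 to 3 when 1 library was left out. Of the single members' values, 45 reversed in sign, 172 lost and 66 gained the threshold, and 3783 did neither.

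Reversed log2 changes with median-of-ratios scaling were Orc6 0.0385 and Prim2 0.0145 in Npm1c, and Mcm4 0.0219, Mcm6 0.0147, Gins1 0.129, Gins3 0.0365, Orc6 0.0473, Pola1 0.0403 and Rrm2 0.0127 in Flt3-ITD. They were Gins3 0.0152 in DM against Npm1c, Rfc2 0.0340 in neutrophils, and Gins3 -0.0213, Rfc3 -0.0598 and Lig1 -0.00416 for the interaction. With listed-gene scaling they were Orc6 0.0112 in Npm1c, Mcm4 0.00779, Mcm6 0.00060, Gins1 0.116, Gins3 0.0232, Orc6 0.0335 and Pola1 0.0265 in Flt3-ITD, and Gins3 -0.202, Rfc3 -0.226 and Lig1 -0.171 for the interaction. With a pseudocount of 1 the interaction of Rpa1 was 0.0028. When 1 or both of those libraries, or any other single library, were left out, the change of Gins1 in Flt3-ITD ran from -0.116 to 0.0394 and that of Rfc1 in DM against Flt3-ITD from -0.117 to 0.151. The interaction then ran from -0.0580 to 0.106 for Rpa1, from -0.0684 to 0.223 for Gins3, from -0.0370 to 0.0906 for Rfc3 and from -0.0221 to 0.204 for Lig1. It ran from -0.0755 to 0.0972 for Pcna, from -0.125 to 0.0401 for Mcm5, from -0.248 to 0.0417 for Rfc2 and from -0.195 to 0.0122 for Cdt1. The cause was not tested. Same-numbered deviations correlated between -0.117 and 0.107, so the numbers were not taken as pairs, and a replicate block gave 20 members lower in Flt3-ITD. At least 155 reads stood behind each member's value.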

Other observations

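The E2F genes themselves did not move together. E2f4, a repressive E2F, had 51.9 and 58.7 RPKM in Npm1c cells, 65.0 and 63.2 in Flt3-ITD, 44.2 and 44.3 in DM, 19.6 and 17.3 in neutrophils, and 87.99 and 93.4 in WT HSPC. It fell against WT HSPC in each of these groups under both scalings. E2f2, an activating E2F, had 3.27 and 4.50 RPKM in Npm1c cells, 7.14 and 7.02 in Flt3-ITD, 8.33 and 7.92 in DM, 36.1 and 36.2 in neutrophils, and 10.5 and 9.76 in WT HSPC. By limma it fell in Npm1c (log2 change -1.29 ± 0.12, adjusted p = 0.00072) and rose in neutrophils (1.79 ± 0.11, adjusted p = 5.75e-07), the group with the lowest replication gene levels. In DM it did not pass (-0.30 ± 0.12, adjusted p = 0.0540). E2f1 did not pass in DM either as deposited (-0.05 ± 0.12, adjusted p = 0.713), and after median-of-ratios scaling it was higher (0.27, adjusted p = 0.0416).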
